A study of Mus musculus with 468 samples.

Results

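Transcription factors that make fat cells and switch on fat synthesis and fat use were followed in the adipose tissue of mice of the Diversity Outbred stock, which is bred from a panel of inbred founder strains so that every animal carries its own mixture of their genomes. The members were the rows of the deposited count table with the symbols Pparg, Cebpa, Cebpb, Cebpd, Srebf1, Mlxipl, Klf15, Nr1h3, Ebf1 and Ppara, which were 10 of 23180 genes. RNA was sequenced from 1 library per mouse for every mouse of the series, and all animals were fed a diet rich in fat and sugar that the labels give as 45% fat. The study's methods name the tissue as the gonadal fat pad, a visceral depot, of adult males and females. The labels hold no treatment, genotype, sex or batch to compare, so every result below is a description of, or an association across, individual mice. The total count per library was 35.3 M to 137.8 M read ends, where M stands for mega, with a median of 82.04 M, and levels are given as CPM, counts per M of the library's total, after TMM scaling, a correction for the composition of each library.

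The libraries fell into separate clusters by the counts of Ddx3y, Eif2s3y, Kdm5d and Uty, which lie on the Y chromosome. These genes had no count in 48.5% of the libraries and were counted in the other 51.5%. The clusters were made from the data and not from the labels, which do not give the sex of a mouse. The study's methods used sex as a covariate. Every correlation below, written r, was computed on log2 CPM after the mean of each cluster had been subtracted, unless a single cluster is named. Its p came from shuffling mice within clusters, and the smallest p that the shuffles can give is 1e-05.

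A set of 6 libraries stood apart. The mice DO180 and DO283 had the lowest correlation with the median profile, at 0.890 and 0.903, against 0.925 or more in the others. DO180 held 415.7 CPM of the testis gene Tcp11, against a median of 0.215 and a highest of 49.6 CPM in the others. DO283 held 17070 CPM of Ceacam10, against a median of 0.129 and a highest of 610.3 CPM in the others. In DO360 and DO405 the transcript CT010467.1 took 19.2% and 28.4% of the counts, against at most 6.27% in the others, and DO153 and DO347 had counts of neither Xist nor the Y chromosome genes. DO283 was also the lowest mouse of all for Pparg, Cebpa, Nr1h3 and Ebf1. Values without the 6 libraries are given below where they moved a result.

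Fat cells form when a wave of early factors, among them C/EBPβ (Cebpb) and C/EBPδ (Cebpd), is followed by PPARγ (Pparg) and C/EBPα (Cebpa), which keep each other on and hold the mature fat cell's genes on. EBF1 (Ebf1) works upstream of and beside this pair. SREBP1 (Srebf1), activated by insulin, and ChREBP (Mlxipl), activated by glucose products, turn on the genes of fatty acid and triglyceride synthesis, and LXRα (Nr1h3), a sensor of oxidised cholesterol, acts on Srebf1 and on cholesterol export genes. PPARα (Ppara) drives fatty acid oxidation and is abundant in brown fat. KLF15 (Klf15) is induced by glucocorticoids and drives the breakdown of branched-chain amino acids.

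The members lie on 7 chromosomes of the mouse build GRCm38, and their counts are sums over each gene. Pparg is at chr6:115360951-115490399, Klf15 at chr6:90462576-90475238 and Cebpa at chr7:35119293-35121928, all on the forward strand. Cebpb is at chr2:167688915-167690418 and Cebpd at chr16:15887286-15891031, both on the forward strand. Srebf1 is at chr11:60199089-60222581 on the reverse strand and Ebf1 at chr11:44617317-45008091 on the forward strand. Mlxipl is at chr5:135089890-135138382 and Ppara at chr15:85734983-85802819 on the forward strand, and Nr1h3 is at chr2:91184061-91202834 on the reverse strand. Of the exon bases of Cebpb, 20.7% also lie in exons of Tmem189, and of those of Cebpd, 15.003% in exons of Spidr, so some reads there could be shared between the genes.

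The palindrome CACGTG, an E-box, is a sequence to which SREBP1, clock factors and other basic helix-loop-helix proteins can bind. The RefSeq promoters of the members ran from 250 bases before to 50 after a start site (GRCm38.p6), and Cebpd had no entry. Among them, the E-box was found in the Klf15 promoter and in a Mlxipl promoter alone, which are therefore shown. Another Mlxipl promoter, at chr5:135106641-135106940, held none of the motifs marked below. The Klf15 window is chr6:90462326-90462625 and the Mlxipl window shown is chr5:135089640-135089939, both on the forward strand and read 5′ to 3′. Capitals mark the E-box CACGTG, the motif CCAAT, read on the other strand as ATTGG, and the GC box GGGCGG.
Klf15: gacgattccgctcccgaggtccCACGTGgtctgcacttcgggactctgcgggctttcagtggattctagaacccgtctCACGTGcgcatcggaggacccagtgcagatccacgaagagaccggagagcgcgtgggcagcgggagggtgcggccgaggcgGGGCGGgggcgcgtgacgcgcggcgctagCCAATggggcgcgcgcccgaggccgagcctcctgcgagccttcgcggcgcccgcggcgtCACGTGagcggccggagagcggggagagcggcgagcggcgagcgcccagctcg
Mlxipl: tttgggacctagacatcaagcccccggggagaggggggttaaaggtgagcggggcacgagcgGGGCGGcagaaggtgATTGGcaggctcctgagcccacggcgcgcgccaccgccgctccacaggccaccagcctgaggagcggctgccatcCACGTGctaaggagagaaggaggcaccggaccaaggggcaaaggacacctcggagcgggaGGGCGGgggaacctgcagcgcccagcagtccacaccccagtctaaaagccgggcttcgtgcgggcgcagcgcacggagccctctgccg
The Klf15 window held CACGTG 3 times, starting at positions -228, -172 and -3 from the start site, and the Mlxipl window held it 1 time, at -98. CACGTG occurred in 7.15% of 32851 mouse promoters of the same length, searched on both strands. CCAAT occurred in 37.4% of them and GGGCGG in 35.7%. The cyclic AMP element TGACGTCA, the AP-1 site TGACTCA, the D-box TTACGTAA and the STAT site TTCCNGGAA were found in no promoter of a member with an entry, and they occurred in 1.79%, 5.20%, 0.119% and 1.15% of all promoters. A match is a run of letters and says nothing about binding.

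The mean levels of the 10 factors spanned more than an order of magnitude, from Cebpb to Cebpa. Among the adipogenic factors, Cebpa had 410.997 ± 89.5 CPM (mean and SD over all mice, as for every level here), with a lowest mouse of 180.9, a median of 406.02 and a highest of 749. Pparg had 143.97 ± 39.2 CPM, with 51.95, 140.8 and 306.7 as the lowest, median and highest. Ebf1 had 142.6 ± 24.9 CPM, with 57.4, 144.8 and 215.03. These 3 factors were present in every mouse, and their highest mouse was at most 5.90-fold above the lowest.

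The early C/EBP factors had the lowest mean CPM, although the median of Ppara (11.4 CPM) lay below that of Cebpd. Cebpd had 17.1 ± 8.10 CPM, with a lowest of 3.05, a median of 15.6 and a highest of 68.7. Cebpb had 12.6 ± 7.82 CPM, with 2.97, 9.97 and 70.3. Their means exceeded their medians, and the highest mice, DO330 for Cebpb and DO349 for Cebpd, were far above the medians.

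Among the lipogenic factors, Srebf1 had 260.9 ± 77.8 CPM, with 71.8, 250.96 and 899 as the lowest, median and highest. Mlxipl had 101.6 ± 87.5 CPM, with 24.3, 62.9 and 765. Nr1h3 had 68.8 ± 10.7 CPM, with 34.3, 68.6 and 106.6. Mouse DO222 was the highest of all for both Srebf1 and Mlxipl. Klf15 had 43.2 ± 21.1 CPM, with 8.599, 39.3 and 202.9, and its highest mouse, DO349, was also the highest for Cebpd.

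Ppara was the most variable member over all mice. It had 32.1 ± 42.4 CPM, with a lowest of 3.20, a median of 11.4 and a highest of 304.97 CPM in DO478, so the extremes were 95.3-fold apart. The biological coefficient of variation, the spread between mice beyond counting error within clusters, was 0.686 for Ppara, which is the 97.3rd percentile of the 9508 genes with a mean of 10 CPM or more. It was 0.457 for Mlxipl, 0.435 for Cebpd, 0.424 for Cebpb, 0.400 for Klf15, 0.278 for Srebf1, 0.230 for Pparg, 0.202 for Cebpa, 0.178 for Ebf1 and 0.156 for Nr1h3. The median of those 9508 genes was 0.175, so Nr1h3, at their 42.9th percentile, was less variable than the median and 9 members were more variable. This coefficient pools both clusters, whose spread was unequal. The SD of log2 CPM of Ppara was 1.45 in libraries without Y chromosome counts and 0.576 in those with them. In the libraries with Y counts, Cebpd (0.643) and Klf15 (0.622) had a larger SD than Ppara.

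Most of the wide spread lay between and within the clusters in an unequal way. In libraries without Y chromosome counts the median of Ppara was 44.9 CPM, and in those with them it was 7.97 CPM. The corresponding medians of Mlxipl were 133.3 and 46.5 CPM. No library with Y counts reached either of these upper medians, and 50.2% of the libraries without them lay above the highest library with them for Ppara (44.4 CPM) and 51.5% for Mlxipl (132.03 CPM). The medians were 14.3 and 8.14 CPM for Cebpb, 50.3 and 30.1 for Klf15, 161.8 and 124.5 for Pparg, and 448.6 and 371.2 for Cebpa, without and with Y counts, and for each of these 4 the clusters overlapped. Srebf1 (262.9 and 242.9 CPM), Ebf1 (149.6 and 137.2), Nr1h3 (70.1 and 66.7) and Cebpd (14.9 and 16.1) differed least. Cebpd was the only member whose median was lower in libraries without Y counts. No test was run on these differences in level between the clusters, which were made from the data.

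**Figure D1:**
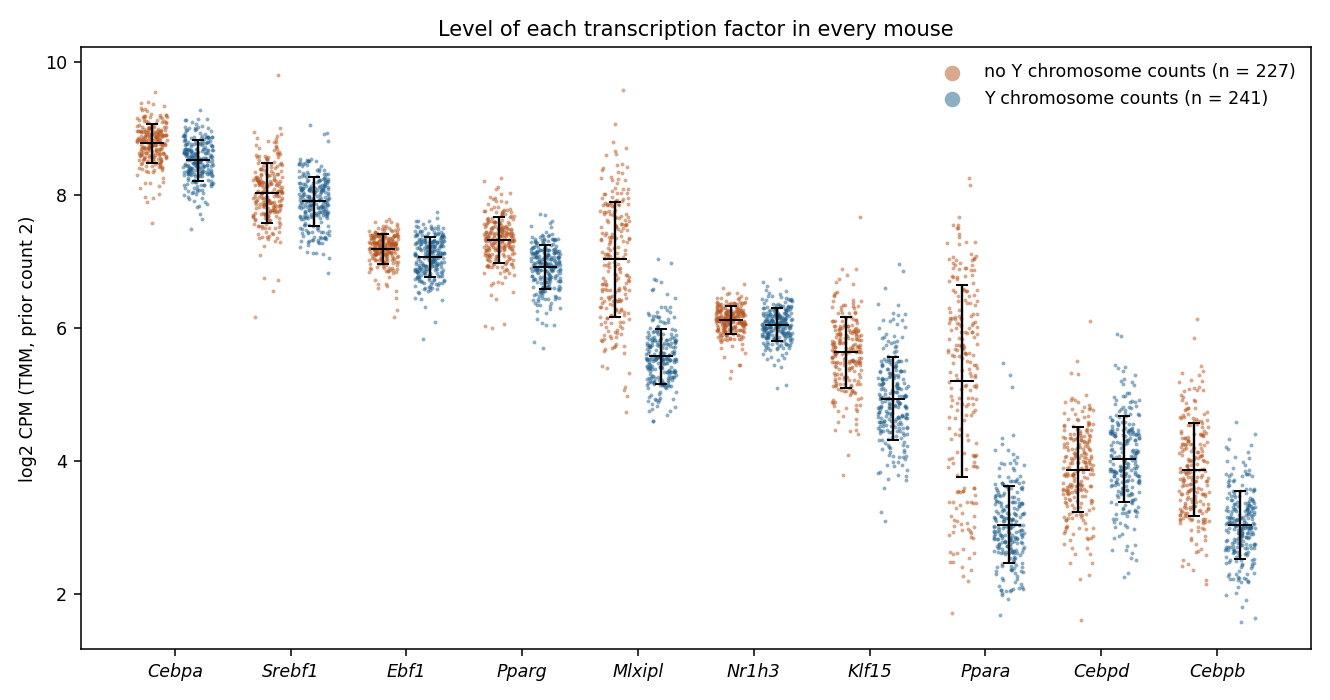
Level of each of the 10 transcription factors in log2 CPM, 1 point per mouse, in libraries without (48.5% of the mice, orange) and with (51.5%, blue) Y chromosome counts, with black bars for the mean ± SD. The points of Ppara and Mlxipl separate most between the clusters (log2 differences of 2.16 and 1.46 in the means), and those of Nr1h3 least (0.07).

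Per kilobase of exon, the scale on which genes can be compared, the order of the mean levels was Cebpa (155.9 CPM per kilobase), Pparg (48.8), Srebf1 (46.3), Nr1h3 (27.3), Mlxipl (18.3), Klf15 (15.5), Ebf1 (14.6), Ppara (8.37), Cebpb (8.35) and Cebpd (4.56). Cebpa was above Pparg in every mouse, by 1.70 ± 0.31 on the log2 scale (SD). Srebf1 was above Nr1h3 in 98.1% of mice. Pparg was above Srebf1 in 60.7% of mice, by a mean log2 difference that was small beside its SD over mice (0.079 ± 0.40). The mean difference was also small beside its SD for Mlxipl and Klf15 (0.018 ± 0.82, Mlxipl higher in 47.4% of mice). For Klf15 and Ebf1 it was -0.048 ± 0.59, with Klf15 higher in 44.9% of mice. The SD describes single mice, and no test was run on these mean differences. Ppara and Cebpb had near-equal means, yet Ppara was above Cebpb in only 30.3% of mice.

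The factors mostly rose and fell together. Of the 45 pairs, 38 had a positive r, of which 36 had p below 0.05, and 7 had a negative r, of which 3 did, so 6 pairs were not distinguishable from no relation. The median r was 0.352. An association with a factor was common among all genes (edgeR quasi-likelihood test, adjusted p below 0.05). Between 18.6% of them (Cebpd) and 35.1% (Klf15) had a positive slope on a factor. Between 22.1% (Cebpd) and 41.1% (Mlxipl) had a negative one. The sign of r was the same in all 5 blocks of consecutive mouse numbers for 42 pairs and in all 5 blocks of library numbers for 39. These numbers are the only order that the labels give, and whether they track a batch was not tested.

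The highest correlation was between Cebpa and Srebf1 (r = 0.700, rho = 0.674, permutation p = 1e-05). It was 0.716 and 0.694 in libraries without and with Y counts, 0.688 without the 2 mice farthest from the median, and 0.623 to 0.729 over the blocks of mouse numbers. With the other 8 members held, the partial r of this pair was 0.526. Pparg and Cebpa, the pair best known for sustaining each other, had r = 0.550 (rho = 0.461, permutation p = 1e-05), and the adjusted p of their slope over all genes was 6.59e-35 (edgeR quasi-likelihood test). With the other 8 factors held, that relation was no longer detectable (partial r = -0.0041, permutation p = 0.93). Cebpa and Nr1h3 had r = 0.566, Srebf1 and Nr1h3 0.492, Pparg and Nr1h3 0.489, and Cebpa and Ebf1 0.489.

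The lipogenic factors Srebf1 and Mlxipl had r = 0.632 (rho = 0.607, permutation p = 1e-05, 0.629 without the 2 farthest mice), with 0.672 and 0.602 in the clusters and a partial r of 0.502. Mlxipl and Ppara, one a factor of fat synthesis and the other of fat oxidation, had r = 0.694 (rho = 0.630, permutation p = 1e-05, 0.701 without the 2 farthest mice), with 0.726 and 0.549 in the clusters. Klf15 and Cebpd had r = 0.480 (rho = 0.461, permutation p = 1e-05, 0.468 without the 2 farthest mice), and theirs was the highest partial r of all pairs, at 0.602.

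The early factors Cebpb and Cebpd, though named as partners, were not correlated (r = -0.0409, rho = -0.0335, permutation p = 0.373). With the other 8 factors held, their partial r was 0.363 (permutation p = 1e-05). Cebpd had the 3 negative correlations below p of 0.05, with Srebf1 (r = -0.160, permutation p = 0.00058), Ppara (r = -0.151, p = 0.00095) and Mlxipl (r = -0.132, p = 0.00428). For Cebpd and Mlxipl the rank correlation was -0.088 with permutation p = 0.0568.

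**Figure D2:**
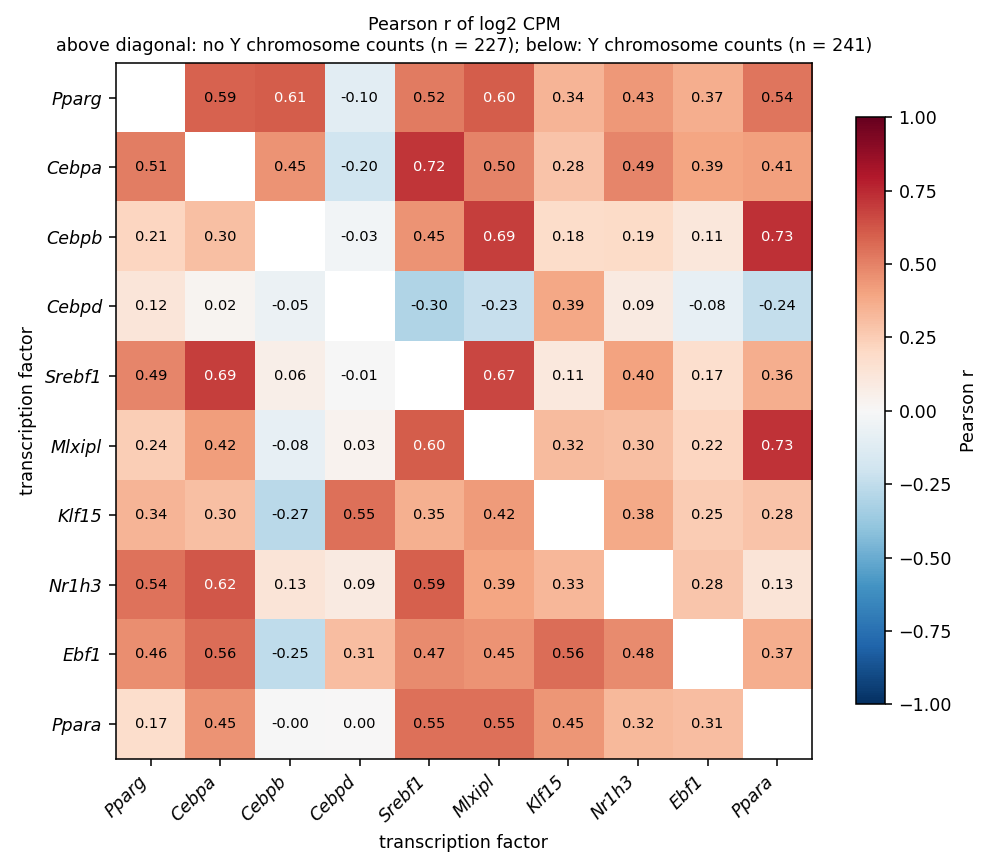
Pearson r of log2 CPM for the 45 pairs of transcription factors, above the diagonal in libraries that lack Y chromosome counts and below it in those that have them, on a colour scale from blue (negative) to red (positive). The cell of Cebpa with Srebf1 is alike on both sides (0.716 and 0.694), and the cells of Cebpb with Ppara differ (0.734 and -0.00152).

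The relations of Cebpb differed between the clusters. In libraries without Y counts it rose with Ppara (r = 0.734) and Mlxipl (r = 0.694), and in libraries with them r was -0.00152 (permutation p = 0.981) and -0.0823 (permutation p = 0.2). The slope of Ppara on Cebpb was steeper by 1.34 ± 0.12 (SE) log2 units per log2 unit without Y counts (adjusted p = 2.37e-24, edgeR quasi-likelihood test of the interaction), and that of Mlxipl on Cebpb by 0.89 ± 0.083 (adjusted p = 1.5e-22). Across all genes, 64% had a slope on Cebpb that differed between the clusters, so such a difference was common for this factor. The share was 45.1% for Pparg, 38.9% for Mlxipl, 38.3% for Ppara, 34% for Srebf1, 33.4% for Cebpd, 30.5% for Cebpa, 30.3% for Klf15, 28.1% for Ebf1 and 22.4% for Nr1h3. The Ppara range in libraries with Y counts ended at 44.4 CPM, and that of the others at 304.97 CPM.

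**Figure D3:**
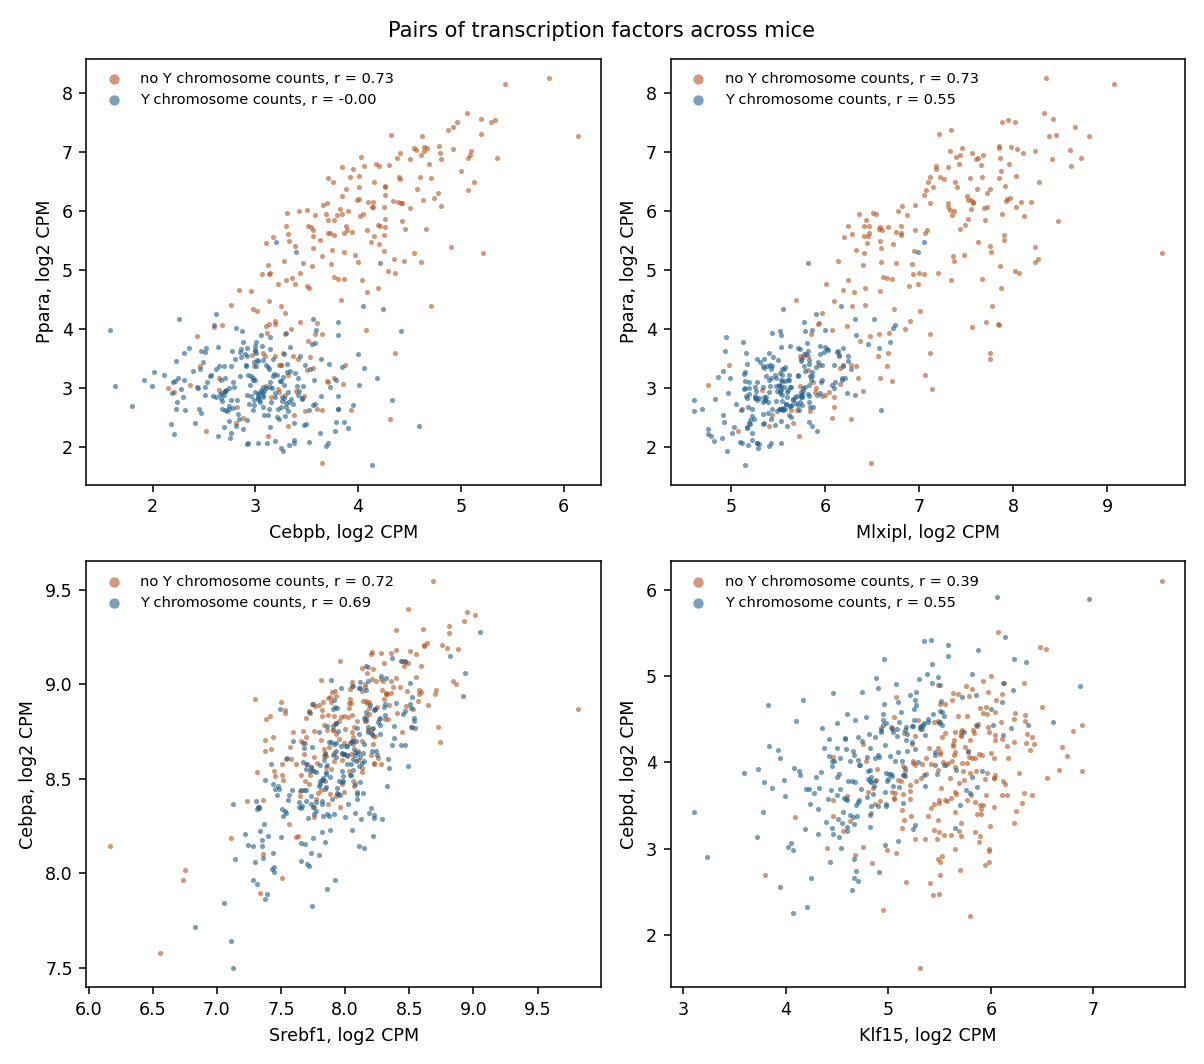
Log2 CPM of 4 pairs of the transcription factors, 1 point per mouse, orange for libraries without Y chromosome counts and blue for those with them, with r in each cluster. Ppara rises with Cebpb in libraries without Y counts (r = 0.734) and not in those with them (r = -0.00152), while Cebpa and Srebf1 rise together in both (0.716 and 0.694).

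Brown and beige fat genes moved with several of these pairs. The summed level of the 14 brown and beige fat genes measured, among them Ucp1, the uncoupling protein of brown fat, had a lowest value of 64.3, a highest of 8139 and a median of 207.6 CPM, and was highest in DO330, the mouse with the most Cebpb. When the mean of these 14 genes (standardised log2 CPM) was held, r of Cebpb with Ppara went from 0.544 to -0.242 (permutation p = 2e-05), that of Cebpb with Mlxipl from 0.476 to 0.0124 (p = 0.787), and that of Mlxipl with Ppara from 0.694 to 0.286 (p = 1e-05). In libraries without Y counts alone, the r of Mlxipl with Ppara was then -0.0448 (p = 0.5). Cebpa with Srebf1 (0.663), Srebf1 with Mlxipl (0.571) and Cebpd with Klf15 (0.516) stayed close to their plain values. In a bulk sample, more cells of a type and more RNA per cell cannot be told apart.

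Adipocyte markers also moved with the factors, and their defining members were abundant in every library: the 16 markers summed to 17956 to 73091 CPM. With their mean held, 26 pairs stayed positive and 6 were negative at p below 0.05. The 4 pairs whose r fell furthest all held Ebf1: r went from 0.489 to 0.0104 with Cebpa, from 0.322 to -0.116 with Srebf1, from 0.443 to 0.0707 with Klf15, and from 0.401 to -0.190 with Nr1h3 (0.370 without the 6 libraries that stood apart and with no score held). The 18 macrophage markers summed to 460.96 to 9012 CPM, with a median of 1422. With their mean held, Klf15 with Ppara went from 0.297 to -0.00745 (permutation p = 0.88), and Cebpa with Srebf1 stayed at 0.647. The part of cell composition in these correlations was not tested further.

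The gene programs that each factor followed were counted in lists of genes, with an edgeR quasi-likelihood test on the counts of 18380 genes that passed a minimum count of 10 in 50% of libraries. "Rose with" and "fell with" mean an adjusted p below 0.05 across all of these genes for the slope on the factor. A joint fit held all 10 factors at a time and gives a coefficient in log2 units per SD of a factor, with the other 9 held. The lists share genes (Scd1 and Fabp4, for example, stand in several), several of their genes are not fat-cell specific, and most of the factors were correlated with each other, so the counts are not independent of each other. Counts with a cell-type mean held are given without the share of all genes under that setting, so they were not compared with it. For the adipocyte and macrophage lists the held mean is made of the same markers, so their counts can fall for that reason alone. Over all genes tested the median r was near 0 for every factor, between -0.037 and 0.003. The 80 genes named as most like or most unlike a factor were picked by the same r. Their permutation p, 1e-05 for each, followed from that choice and is no separate evidence.

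Pparg rose with the storage genes of the fat cell. Of 18 PPARγ targets, 17 rose and none fell, against 28.8% of all genes that rose and 39.5% that fell, with a median r of 0.411. Gpd1, which makes glycerol phosphate for triglycerides, had 1296 CPM on average and the highest r of the list (0.542, adjusted p = 7.48e-36), and Fgf1 the lowest (-0.081, adjusted p = 0.0626). In the joint fit 7 of the 18 rose and none fell, beside 17.9% and 20.9% of all genes. The coefficients were 0.22 ± 0.027 (SE) for Gpd1 and 0.17 ± 0.030 for Dgat2, the last enzyme of triglyceride synthesis, which belongs to the list of triglyceride genes, of which 10 of 12 rose with Pparg and 1 fell. With the adipocyte marker mean held, 9 of the 18 targets rose with Pparg, and that marker list shares genes with the targets.

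The genes most like Pparg were March5 (r = 0.642), Hk2 (0.625), Adrm1 (0.619), Akt2 (0.612) and Pex13 (0.612), and the most unlike were Dlg4 (-0.567), Slc25a12 (-0.566) and Slc38a1 (-0.565). Hk2 is the hexokinase of insulin-responsive tissues and Akt2 the kinase that carries the insulin signal to glucose uptake. Mitosis genes turned with the fit: all 18 fell with Pparg alone (1 with the adipocyte mean held), and 15 of 18 rose with it when the other 9 factors were held (8 with the adipocyte and macrophage means held too). Mki67, the proliferation antigen, had r = -0.210 and a joint coefficient of 0.20 ± 0.047 (adjusted p = 0.000134). Endothelial genes rose with Pparg in both fits, 11 of 14 alone with 1 that fell, and 10 of 14 jointly. Among them Flt1, a VEGF receptor, had r = 0.521, and Vwf had r = -0.247.

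Cebpa rose with lipid droplet and lipolysis genes. Of 12 lipolysis genes 11 rose and 1 fell, against 28.2% and 41% of all genes. Plin1, the coat protein of the lipid droplet, was the gene most like Cebpa of all (1475 ± 297.9 CPM, r = 0.781, 0.774 and 0.790 in the clusters), with a joint coefficient of 0.13 ± 0.012 (adjusted p = 2.26e-21). Pnpla2, the triglyceride lipase, had r = 0.498. After Plin1 came Akt2 (0.740), Lipe, the hormone-sensitive lipase (0.706), Dgat1 (0.700) and Abhd15 (0.692), and the most unlike gene was Tceal9 (-0.594).

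Of 18 PPARγ targets, 17 rose with Cebpa, as many as with Pparg, and of 15 C/EBP targets 9 rose and 4 fell. Among the latter the insulin-responsive glucose transporter Slc2a4 had r = 0.579, while the acute-phase gene Lcn2 had r = -0.364 and leptin (Lep) -0.127. In the joint fit, where 5.79% of all genes rose with Cebpa and 7.84% fell, 11 PPARγ targets and 3 C/EBP targets rose and none of either fell. With the adipocyte mean held and Cebpa alone in the fit, 6 PPARγ targets, 6 lipolysis genes and 1 C/EBP target rose.

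Ebf1 rose with markers of the fat cell and of its blood vessels. Of 16 adipocyte markers 15 rose and 1 (Lep, r = -0.114) fell, against 30.2% and 39.7% of all genes, with a median r of 0.585 (0.371 and 0.650 without and with Y counts). Lipe was the gene most like it (r = 0.753), ahead of Ankef1 (0.740), Blcap (0.740), Dlc1 (0.727) and Sik2 (0.718). Cadm1 (-0.693), Ttyh3 (-0.674) and Sec61a1 (-0.660) were most unlike. In the joint fit (18.5% of all genes rose and 26.6% fell) 14 adipocyte markers rose and none fell. The largest coefficient among them was that of Adrb3, the β3-adrenergic receptor of fat cells, at 0.29 ± 0.029 (adjusted p = 4.06e-19).

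Of 14 endothelial markers 13 rose with Ebf1 and none fell, with a median r of 0.109 in libraries without Y counts and 0.546 in those with them. For 13 of the 14 the slope differed between clusters, beside 28.1% of all genes for this factor. Flt1 had r = 0.614, Kdr 0.504 and Vwf -0.003. Of 16 progenitor markers 12 fell, and 1, Gsn (r = 0.545), rose. With the adipocyte mean held, a mean made of the same 16 markers, 5 of these and 4 endothelial markers rose with Ebf1. All 18 mitosis genes fell with Ebf1 in both fits.

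Cebpb rose with brown fat genes and with immediate early genes. All 14 brown and beige fat genes rose with it, against 26.7% of all genes that rose and 36.5% that fell, with a median r of 0.730 without and 0.264 with Y counts. Ucp1 had r = 0.552, Dio2, which activates thyroid hormone, 0.598, and Cpt1b, the muscle and brown fat form of the fatty acid carrier enzyme, 0.647. With the other 9 factors held, Ppara among them, 11 of 14 still rose (beside 17.9% of all genes that rose and 17.9% that fell), with Dio2 at 0.52 ± 0.081 and Ucp1 at 0.13 ± 0.090 (adjusted p = 0.247). The genes most like Cebpb were Sod2, the mitochondrial superoxide dismutase (r = 0.716, 0.819 and 0.482 in the clusters), Tysnd1 (0.713), Rab5if (0.707), 0610012G03Rik (0.699) and Atxn2 (0.696). Abat (-0.544), Sema5a (-0.530) and Ptch1 (-0.526) were most unlike.

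Of 22 immediate early genes, which respond fast to stimuli and to handling of tissue, 13 rose with Cebpb and 2 fell, and 16 rose in the joint fit. Atf3, a stress-induced factor, had r = 0.341 and a joint coefficient of 0.55 ± 0.055 (adjusted p = 2.77e-18). Macrophage markers went opposite ways in the clusters. Their median r with Cebpb was -0.452 without Y counts and 0.407 with them, and the slope differed for 17 of 18 (64% of all genes differed). Lyz2, a lysozyme of macrophages, had r = -0.512 and 0.390, and Csf1r, the receptor that macrophages need to grow, -0.579 and 0.418. In the joint fit 13 macrophage markers rose with Cebpb and 2 fell, and 3 rose with both cell-type means held. Of 16 adipocyte markers, none rose with Cebpb in the joint fit and 13 fell (3 with both cell-type means held), the complement gene Cfd by 0.24 ± 0.052 on the log2 scale per SD.

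Cebpd rose with genes of the glucocorticoid response and against cholesterol synthesis. Of 14 glucocorticoid-response genes 11 rose and 1 fell, against 18.6% and 22.1% of all genes, and in the joint fit (6.53% and 7.64%) 10 rose and none fell. Errfi1, a feedback inhibitor of the EGF receptor, was the gene most like Cebpd (98.4 ± 46.9 CPM, r = 0.758, joint coefficient 0.49 ± 0.025, adjusted p = 6.8e-56). Nfkbia, the inhibitor of NF-κB (0.753), the clock gene Per1 (0.730), Rhob (0.709) and Tsc22d3, also called GILZ (0.694), followed. All of these but Rhob belong to the list. The most abundant list gene, Pdk4, had r = 0.025 (adjusted p = 0.606). Myct1 (-0.483), Klf10 (-0.443) and Hic1 (-0.434) were most unlike.

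Of 20 cholesterol synthesis genes none rose with Cebpd and 19 fell, with a median r of -0.329, and 13 fell in the joint fit. Idi1 had the lowest r (-0.400, adjusted p = 8.17e-17), Hmgcs1, which makes the first committed intermediate, had -0.358, and Insig1, which holds back SREBP activation, -0.325. Of 16 genes of fatty acid synthesis none rose and 11 fell.

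The relation of Cebpd to whole programs turned between the clusters. Its slope differed for all 20 respiratory chain genes, all 17 genes of branched-chain amino acid breakdown, all 18 mitosis genes and all 16 extracellular matrix genes, beside 33.4% of all genes. The median r was -0.232 without Y counts and 0.148 with them for the respiratory chain, and -0.137 and 0.293 for branched-chain amino acid breakdown. For mitosis it was 0.107 and -0.369, and for the extracellular matrix 0.127 and -0.303. For Cebpa, which kept its direction, the slope differed for 17 of 20 respiratory chain genes (beside 30.5% of all genes), with a median r of 0.466 and 0.566.

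Of 12 liver markers 11 rose with Cebpd and 1 fell, with a median r of 0.200. The summed liver marker level ranged from 610.99 to 12571 CPM, of which Cyp2e1 made up most. Of the 12 markers 8 had no count in some libraries, in up to 71 libraries for a single marker. Whether the summed level came from liver cells was not tested. Albumin (Alb) had r = 0.215 and a mean of 108.2 CPM.

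Srebf1 and Mlxipl, which share many targets, both rose with fatty acid synthesis. Of 15 SREBP1 targets 14 rose with Srebf1 and none fell, against 27.8% and 39.1% of all genes, and the same counts held for Mlxipl (32.5% and 41.1% of all genes). Fasn, fatty acid synthase, with 10460 ± 8947 CPM, had r = 0.542 with Srebf1 and 0.776 with Mlxipl. Acaca, acetyl-CoA carboxylase, had 0.580 and 0.804. Thrsp, a lipogenic gene under thyroid hormone and glucose control, had 0.600 and 0.788. Scd1, the desaturase and the most abundant target (80374 CPM), had 0.474 and 0.351.

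The joint fit separated the pair. In it, 14 of 16 genes of fatty acid synthesis rose with Mlxipl (17% of all genes rose and 16.4% fell), and 6 of 16 rose with Srebf1 (14.4% and 12.7%), with none that fell with either. The Mlxipl coefficients were 0.63 ± 0.045 for Thrsp, 0.48 ± 0.039 for Fasn and 0.48 ± 0.039 for Acaca, and those of Srebf1 were 0.14 ± 0.045, -0.053 ± 0.039 (adjusted p = 0.337) and 0.050 ± 0.038 (adjusted p = 0.356). Fads2, a desaturase of polyunsaturated fatty acids, had r = 0.016 with Srebf1 and a joint coefficient of 0.30 ± 0.050 (adjusted p = 3.57e-07). Scd1 followed neither past the threshold in the joint fit (0.051 ± 0.024 with Srebf1 and -0.006 ± 0.024 with Mlxipl).

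The difference between the coefficients was tested itself. It was above 0 (Mlxipl minus Srebf1) for 11.7% of all genes and below 0 for 11.9%. It was above 0 for 19 of 20 respiratory chain genes, 14 of 16 citric acid cycle genes and 9 of 16 genes of fatty acid synthesis, and below 0 for none of these. It was below 0 for 8 of 16 adipocyte markers and 6 of 12 lipolysis genes, with 0 and 1 above. Of the single genes with the lowest p, Slc25a32, a mitochondrial folate carrier (0.41 ± 0.037, adjusted p = 2.04e-21), Eif4e3 (0.24 ± 0.023), Pdha1 (0.32 ± 0.031), Gucd1 (0.39 ± 0.039) and Pde4d (0.61 ± 0.061) lay on the Mlxipl side. Tmem120a (-0.31 ± 0.029), the lactate receptor Hcar1 (-0.56 ± 0.061), the lipid droplet gene Plin4 (-0.35 ± 0.039), Dab2ip (-0.19 ± 0.023) and Wdr6 (-0.29 ± 0.037) lay on the Srebf1 side.

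**Figure D4:**
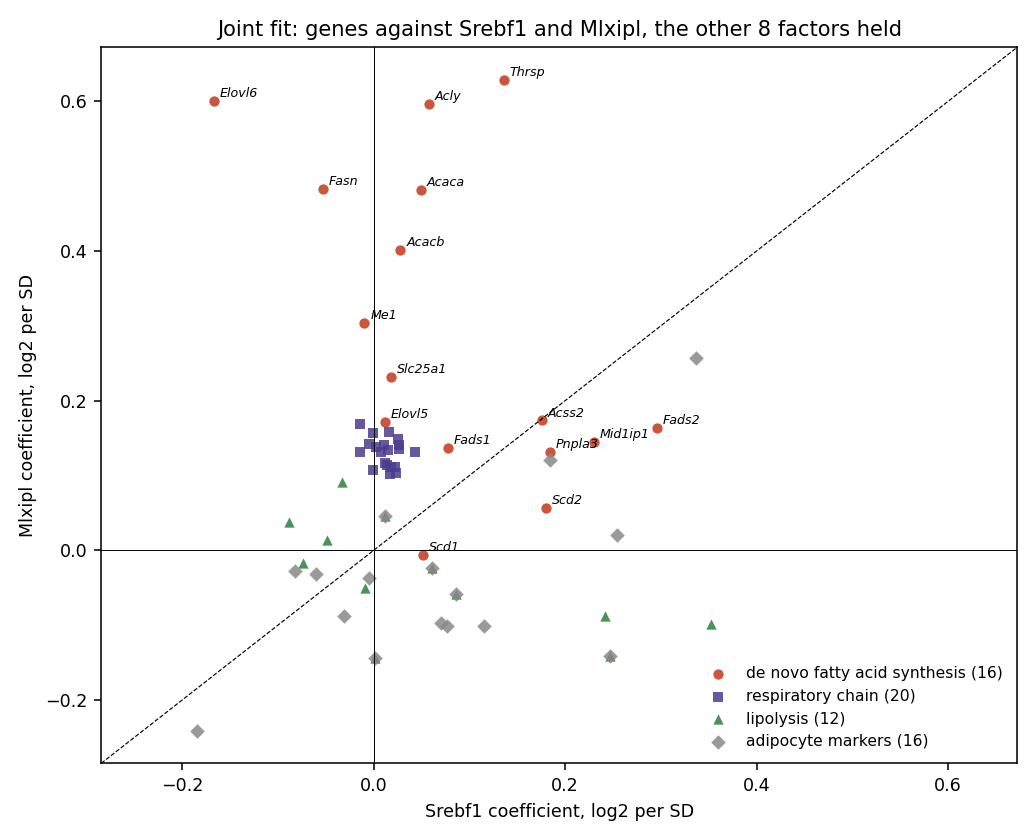
Joint coefficients (log2 units per SD of the factor, other factors held) on Mlxipl (y axis) against those on Srebf1 (x axis), 1 point per gene, for fatty acid synthesis (red circles), the respiratory chain (purple squares), lipolysis (green triangles) and adipocyte markers (grey diamonds), with a dashed line where both are equal. Thrsp (0.63 on Mlxipl, 0.14 on Srebf1) and Fasn (0.48 and -0.053) lie far above the line, and Fads2 (0.30 on Srebf1) lies below it.

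The genes most like each factor also differed. For Mlxipl they were subunits of pyruvate dehydrogenase, the gate from glucose to acetyl-CoA: Pdhb (r = 0.863, 0.930 and 0.568 in the clusters), Pdha1 (0.855) and Pdhx (0.819), with the pentose phosphate enzyme Tkt (0.842) and Txn2 (0.821). For Srebf1 they were Stat5a (0.731), Akt2 (0.723), Slc2a4 (0.704), Pex11a (0.692) and Aco1 (0.680). Serpinb6a (-0.687), Itm2c (-0.686) and Gnai2 (-0.669) were most unlike Mlxipl, and Foxp1 (-0.613) and Wsb1 (-0.609) most unlike Srebf1. Of 18 ChREBP targets 14 rose with Mlxipl and 1 fell, Arrdc4 (r = -0.355), although Arrdc4 and Txnip (r = 0.285) are both known as glucose-induced genes. The median r of the ChREBP targets was 0.678 without and 0.231 with Y counts.

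Nr1h3, the least variable factor, rose with peroxisomal and lipid-handling genes. All 12 genes of peroxisomal fatty acid oxidation rose with it in both fits, against 28% of all genes that rose and 37.4% that fell alone, and 16.9% and 20.5% jointly. Of 13 LXR targets measured 9 rose and none fell, with a median r of 0.227, and 11 rose jointly, among them apolipoprotein E (Apoe, 0.13 ± 0.020) and Apoc1 (0.18 ± 0.031). With both cell-type means held 7 rose jointly. Of 11 genes of fatty acid uptake 9 rose and 1, Got2 (r = -0.439), fell. The genes most like Nr1h3 were Dolk (0.675), Abhd15 (0.673), Dgat1 (0.655), the peroxisomal membrane gene Pxmp4 (0.646) and catalase (Cat, 0.640), and Map1b (-0.610) and Setbp1 (-0.598) were among the 3 most unlike.

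Klf15 rose with branched-chain amino acid breakdown. All 17 measured genes of the pathway rose with it, against 35.1% of all genes that rose and 35.2% that fell, with a median r of 0.567 (0.449 and 0.729 in the clusters). The median r of these genes was 0.596 with Ppara and 0.560 with Mlxipl, so Klf15 did not stand alone here. In the joint fit 15 rose and none fell with Klf15 (28.3% and 23.3% of all genes). Bcat2, the first step, had r = 0.714 and a joint coefficient of 0.33 ± 0.021 (adjusted p = 8.23e-41), and Aldh6a1, a late step of valine breakdown, had r = 0.737 and 0.26 ± 0.017. Dld (r = 0.316) and Auh (0.378) were lowest or did not pass jointly (0.023 ± 0.015 and 0.013 ± 0.012). Syde2 (0.788), Mocs1 (0.746), the amino acid transporter Slc43a1 (0.741) and Fam13a (0.728) stood with Aldh6a1 as the genes most like Klf15. Zfp710 (-0.711), Cyth4 (-0.707) and Rab3il1 (-0.694) were most unlike.

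All 18 mitosis genes and all 16 extracellular matrix genes fell with Klf15 in both fits. Mki67 had r = -0.598, Col3a1, a fibrillar collagen, -0.585, and Timp1, an inhibitor of matrix proteases, -0.672. Of 18 macrophage markers 16 fell and 2 rose, with a median r of -0.549. Itgax, a marker of inflammatory macrophages, had -0.646, and the efferocytosis receptor Mertk, at 0.450, went the other way. With the macrophage mean held, a mean made of the same 18 markers, 10 fell. Jointly with both cell-type means held 5 fell in place of 15. Of 18 clock genes 15 rose and 2 fell, Bhlhe41 (r = -0.372) and Bhlhe40 (-0.190). Per1 had r = 0.591. With the macrophage mean held 10 rose.

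Ppara rose with mitochondrial oxidation as a block. Of 18 genes of mitochondrial fatty acid oxidation 17 rose and 1 fell, against 32.5% and 40.1% of all genes, and all 16 citric acid cycle genes and all 20 respiratory chain genes rose. The counts were the same in the joint fit (25.4% of all genes rose and 23.3% fell). The gene most like Ppara was Acadvl, very long chain acyl-CoA dehydrogenase (393.6 ± 359.5 CPM, r = 0.924, 0.950 and 0.788 in the clusters, joint coefficient 0.53 ± 0.018, adjusted p = 2.04e-101). Ogdh (0.900), Etfdh (0.900) and Letmd1 (0.897) were also among the 5 genes most like it. The carnitine palmitoyltransferases split: Cpt1b had r = 0.867, and Cpt1a, the liver form, was the 1 gene that fell (r = -0.613, joint coefficient -0.079 ± 0.017, adjusted p = 1.92e-05).

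All 14 brown and beige fat genes rose with Ppara in both fits, with a median r of 0.887 without Y counts and 0.363 with them. Ucp1, at 315.5 ± 596.07 CPM, had r = 0.788 (0.934 and 0.433) and the joint coefficient 1.69 ± 0.10, which was the largest of the list, and Cidea, a lipid droplet gene of brown fat, had r = 0.893 (0.939 and 0.651). Ppargc1b, a coactivator of mitochondrial genes, had the highest r of the list (0.895) and Fgf21 the lowest (0.192). Of 20 PPARα targets 13 rose and 3 fell, with Pdk4, which shuts pyruvate dehydrogenase, at r = 0.773. All 18 macrophage markers fell with Ppara alone, and 3 fell and 6 rose with the macrophage mean held, a mean made of the same markers. The most unlike genes were Gnai2 (-0.689), Mcrip1 (-0.681) and Itm2c (-0.671), of which Gnai2 and Itm2c were also most unlike Mlxipl.

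**Figure D5:**
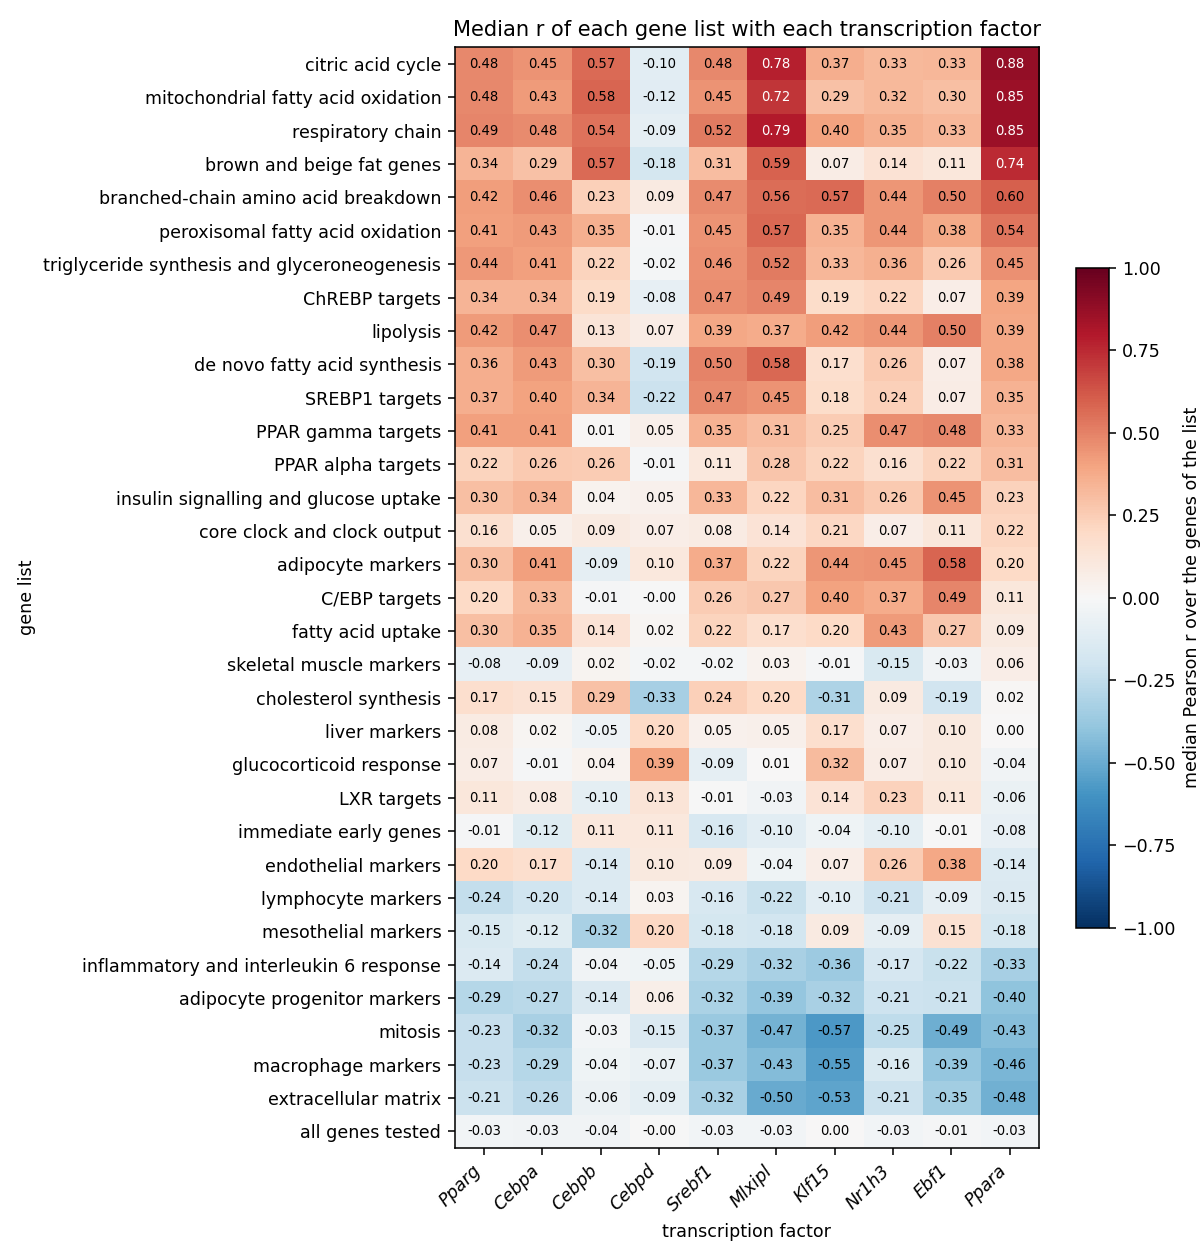
Median Pearson r between each transcription factor (columns) and the genes of each list (rows) over all mice, with cluster means subtracted. The last row gives the median over all genes tested. Ppara and Mlxipl are far above 0 for citric acid cycle genes (0.877 and 0.776), Klf15 is lowest for mitosis genes (-0.573), and Cebpd is negative for cholesterol synthesis (-0.329).

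Differences within the other pairs of partners were tested in the same way. For Cebpb minus Cebpd, 15.7% of all genes were above 0 and 14.7% below. Of 20 respiratory chain genes 18 lay on the Cebpb side, as did 12 of 20 cholesterol synthesis genes, with none on the Cebpd side. On the Cebpd side lay 7 of 14 glucocorticoid-response genes and 10 of 16 adipocyte markers, with none on the Cebpb side, and 10 of 12 liver markers with 1 on the other. Traf4 (0.29 ± 0.029), Sod2 (0.22 ± 0.024), the lysosomal factor Tfe3 (0.12 ± 0.014) and Ddit3, the stress factor CHOP (0.27 ± 0.031), were among the 5 genes of lowest p on the Cebpb side. Arrdc3 (-0.55 ± 0.053), Errfi1 (-0.45 ± 0.046), Plin4 (-0.27 ± 0.031), Fam214a (-0.38 ± 0.045) and Arl4d (-0.40 ± 0.050) had the lowest p on the Cebpd side.

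For Pparg minus Cebpa, 9.25% of all genes were above 0 and 7.9% below, the fewest of the 3 contrasts. On the Pparg side lay 9 of 18 clock genes, with 2 on the other side, and 7 of 18 genes of fatty acid oxidation, 6 of 14 brown and beige fat genes and 6 of 14 endothelial markers, with none on the other. On the Cebpa side lay 6 of 17 genes of branched-chain amino acid breakdown, with none on the other, and 5 of 16 adipocyte markers, with 1 on the other. Cish, an inhibitor of cytokine signals induced by STAT5, had the largest difference of the genes of lowest p (1.29 ± 0.12), ahead of Resf1 (0.32 ± 0.032), B4galt1 (0.29 ± 0.029), Gm26917 (0.83 ± 0.086) and mt-Rnr2 (0.55 ± 0.058). Nrip1, a corepressor in fat (-0.28 ± 0.028), Zbtb5 (-0.26 ± 0.027), 1700017B05Rik (-0.26 ± 0.029), Plin1 (-0.12 ± 0.015) and Rnf8 (-0.20 ± 0.025) lay on the Cebpa side.

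Other regulators of fat-cell formation, a list of 42, followed the factors unevenly. With Klf15 30 rose and 5 fell, beside 35.1% and 35.2% of all genes. The counts were 27 and 9 for Cebpa (28.2% and 41% of all genes), 27 and 7 for Ebf1 (30.2% and 39.7%), 27 and 6 for Ppara (32.5% and 40.1%) and 26 and 6 for Pparg (28.8% and 39.5%). They were 24 and 13 for Srebf1 (27.8% and 39.1%), 24 and 7 for Nr1h3 (28% and 37.4%), 22 and 7 for Mlxipl (32.5% and 41.1%), 20 and 11 for Cebpb (26.7% and 36.5%) and 14 and 10 for Cebpd (18.6% and 22.1%). The coactivator Ppargc1a had the highest r of the list with Ppara (0.845) and with Mlxipl (0.680). Stat5a, a factor that growth hormone activates, had it with Cebpa (0.636) and Srebf1 (0.731). The glucocorticoid receptor Nr3c1 had it with Ebf1 (0.695), Klf9 with Klf15 (0.654), Klf2 with Cebpd (0.574), Cebpg with Pparg (0.611), Rxrb with Cebpb (0.570), and Rxra, the partner of LXR and PPAR proteins, with Nr1h3 (0.505).

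At the other end of the list, Klf5, at 1.08 CPM, had the lowest r with Pparg (-0.351), Cebpa (-0.329) and Srebf1 (-0.293). Srebf2, the paralog that governs cholesterol synthesis, had the lowest r with Ebf1 (-0.449) and Nr1h3 (-0.443). The 3 most abundant genes of the list were Insig1 (473.7 CPM), Ncor1 (292.2 CPM) and Nr3c1 (190.2 CPM). Insig1, itself a target of SREBP1, had r = 0.433 with Srebf1 and -0.325 with Cebpd.

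The order of the mice touched 4 factors. Per 100 mouse numbers, with cluster and library number in the fit, Cebpb rose by 0.078 ± 0.019 log2 units (adjusted p = 0.00136, edgeR quasi-likelihood test), Srebf1 by 0.054 ± 0.012 (adjusted p = 0.000669), Mlxipl by 0.065 ± 0.020 (adjusted p = 0.0175) and Pparg by 0.030 ± 0.010 (adjusted p = 0.0293). Of all genes, 5.01% rose and 8.71% fell with mouse number. Without the cluster in the fit, the slope of Srebf1 alone of these 4 still passed, at 0.043 (adjusted p = 0.00552). That of Pparg was then 0.0034 (adjusted p = 0.864), that of Cebpb 0.027 (adjusted p = 0.42) and that of Mlxipl -0.0216 (adjusted p = 0.663), and Klf15 passed with -0.067 (adjusted p = 0.00971). No member passed for library number, with which 0.169% of all genes rose and 0.125% fell. With both numbers held, 43 of the 45 pair correlations stayed on the same side of p of 0.05.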

How the data were processed

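Adipose RNA of every mouse was sequenced from polyA-selected libraries with paired ends. The authors aligned both read ends as single reads to a joined founder transcriptome with EMASE and GBRS and deposited 1 table of expected counts per gene, which are allele-summed estimates and need not be whole, and 1 table of log2-scale values from the variance-stabilising transformation of DESeq2. Per the labels the build was GRCm38. A pair of ends can count up to 2 times, so totals exceed the number of fragments. The upstream tools' versions were not given in the sources read.

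The expected counts were rounded, scaled with TMM and tested with edgeR 4.0.16 in R 4.3.3 on 18380 genes with at least 10 counts in 50% of libraries. log2 CPM used a prior count of 2. One fit per factor held the cluster, a joint fit held all 10 factors, and interaction fits tested the clusters against each other. p-values were adjusted by the Benjamini-Hochberg method over all genes tested with a threshold of 0.05. Pair correlations used 100000 permutations within clusters, and the 45 pairs also have adjusted p from the edgeR fits. Each mouse is 1 library, and every p-value treats the mice as independent of each other. Relatedness, generation and wave are not in the labels and were not in the fits. The study's methods also used generation and wave as covariates, and kinship when mapping genetic effects on expression.

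The members and gene lists were chosen with earlier results of these data known, so no count over them is independent evidence. Genes named in the text are the 10 members, for each factor the 5 genes most like and 3 most unlike it by r with a mean of at least 10 CPM, for each list its 3 most abundant members and those of highest and lowest r or coefficient, and for each contrast the 5 genes of lowest p per side. Some genes that this rule names are not reported here. The 6 libraries that stood apart were found after the data were seen by an r with the median profile under 0.92, CT010467.1 at 10% of counts or more, or no count of Xist and the Y chromosome genes. Gene positions matched GENCODE for 99.2% of 23180 identifiers. Promoters came from RefSeq. Fits were tested on simulated data. DESeq2 1.42.0, limma 3.58.1, the deposited transformed values, other scalings and covariates were tried as alternatives. No column of samples was left unused.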

Additional observations from a re-analysis of the deposited data

Results flagged for a closer look

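For 13 of the 45 pairs the relation differed between libraries without and with Y chromosome counts in the edgeR interaction test, with either factor as the response. These clusters were made from the data and not from the labels. The values are r without Y counts minus r with them. Of these pairs 6 involved Cebpb: the difference was 0.776 with Mlxipl, 0.735 with Ppara, 0.453 with Klf15, 0.394 with Srebf1, 0.393 with Pparg and 0.362 with Ebf1. In the other direction, Ebf1 had -0.384 with Cebpd, -0.311 with Klf15 and -0.300 with Srebf1, and Cebpd with Srebf1 had -0.292.

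The other 3 differed little in r, with 0.0762 for Cebpa and Mlxipl, 0.0697 for Srebf1 and Mlxipl and 0.0597 for Ebf1 and Ppara, and their slopes differed in opposite directions according to which factor was the response. The share of all genes whose slope differed between the clusters was 64% for Cebpb, 38.9% for Mlxipl, 38.3% for Ppara and 22.4% to 45.1% for the other 7 factors. Mlxipl and Ppara ranged more widely in libraries without Y counts, and the part of that wider range in the differences was not tested.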

How the results depend on the processing

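No paired analysis was possible because all libraries belong to 1 group. Of the recomputed counts and levels that carry a comparison, 95.9% stayed close to their value, and 10 moved. Close means within 1.5 times for a count or percent, and within the SD over mice for a mean level. The number of genes associated with Ebf1 went from 12852 to 6171 with the adipocyte score held, and that of genes associated with Cebpa given the other 9 from 2504 to 1550 with both scores held. The percent of genes associated with mouse number went from 13.7 to 23.7 without the cluster term, and the percent of genes associated with library number from 0.294 to 0 with limma (8.48 at an unadjusted p below 0.05) and 0.613 with no filter. The 3 negative pairs became 7 with total counts in place of TMM, 5 without centring by cluster, 6 with the adipocyte score held and 11 as partial correlations, where the 36 positive pairs became 22. Of the other recomputed values, 1070 kept their side of the threshold with no change of sign in a value past it, 62 fell short of the threshold, 31 came to pass it and 47 changed sign with p below 0.05 before or after. The causes were not tested.

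The r values that changed sign with p below 0.05 before or after the change were as follows. With the adipocyte score held they were Cebpa and Klf15 (-0.0533), Srebf1 and Klf15 (-0.0437), Srebf1 and Ebf1 (-0.116), and Nr1h3 and Ebf1 (-0.190). With the macrophage score held they were Srebf1 and Klf15 (-0.0364), and Klf15 and Ppara (-0.00745). With the brown and beige fat score held, an alternative chosen after seeing the data, they were Cebpb and Cebpd (0.167), Cebpb and Ppara (-0.242), Cebpd and Mlxipl (0.0251), and Cebpd and Ppara (0.111). With it held in libraries without Y counts they were Pparg and Ppara (-0.0961), Cebpb and Cebpd (0.275), Cebpb and Ppara (-0.218), Cebpd and Ebf1 (-0.0094), Srebf1 and Ppara (-0.121), Mlxipl and Ebf1 (-0.0238), Mlxipl and Ppara (-0.0448), and Nr1h3 and Ppara (-0.186). As partial r with the other 8 held they were Pparg with Cebpa (-0.0041), Cebpd (-0.121), Mlxipl (-0.0078) and Ppara (-0.0687), Cebpa with Mlxipl (-0.232) and Ppara (-0.0361), Cebpb with Cebpd (0.363), Srebf1 (-0.204) and Nr1h3 (-0.00762), Srebf1 with Klf15 (-0.110), Ebf1 (-0.148) and Ppara (-0.0657), Klf15 with Ebf1 (-0.000972), and Nr1h3 with Ppara (-0.137). In libraries with Y counts they were Cebpb with Mlxipl (-0.0823) and Ppara (-0.00152), and Cebpd with Mlxipl (0.0326) and Ppara (0.00135), and in those without them Cebpb with Klf15 (0.184) and Cebpd with Ebf1 (-0.0789). Without centring by cluster it was Cebpb with Klf15 (0.268). With total counts in place of TMM they were Nr1h3 with Cebpb (-0.113), Mlxipl (-0.0653) and Ppara (-0.232), and Ebf1 with Mlxipl (-0.0481) and Ppara (-0.0326). Over blocks of library numbers, Cebpd and Ppara reached 0.0143 and Cebpd and Ebf1 -0.0206. The slope of Mlxipl on mouse number was -0.0216 without the cluster term.

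Without the 6 libraries that stood apart, 44 of 45 pair correlations kept their side of p of 0.05 and 1 gained it. The mouse's sex and batch are not in the labels used here, cell composition was held only through marker means that share genes with the lists, and counts of read ends overstate the depth behind each value. At a median total of 82.04 M counts, Cebpb, the factor of lowest mean CPM, still had 12.6 CPM on average. The spread between mice and not counting error therefore set the precision.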
